A study of Mus musculus with 16 samples.

Results

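Nuclear tRNA-His carries histidine to the cytosolic ribosome. Every nuclear row named tRNA-His that had counts here has the anticodon GTG. The 3 rows described are tRNA-His-GTG-1, tRNA-His-GTG-2 and tRNA-His-GTG-3, taken by name as all rows of the nuclear GTG anticodon in 2 count tables that together hold 826 rows. Members of 1 anticodon that differ in the body of the tRNA are called isodecoders; they read the same codons. tRNA-His is unusual in that an extra guanosine is added at its start after transcription, and the enzyme that attaches histidine recognises the tRNA by that base. Together with the tRNAs for asparagine, aspartate and tyrosine it also receives the modified base queuosine at the first position of the anticodon. Because isodecoders are so alike, a read can be hard to assign between them; the total over the anticodon does not depend on that assignment.

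tRNA was sequenced by mim-tRNAseq, a method that reads whole tRNAs through their modified bases, in 16 mouse libraries from work on base editing of a pathogenic mutation in mitochondrial tRNA-Ala. The first 8 libraries came from mouse embryonic fibroblasts (MEFs), with 2 passages each of the lines named Cl_1, Cl_2 and Cl_3 and of a line named Ctrl_1. The other 8 came from hearts of the m.5024T mouse model: 4 mice received AAV9-DdCBE, labelled 2X, 5X, 10X and 10X, and 4 received AAV9-GFP, labelled 3X, 3X, 5X and 5X. AAV9 is a viral vector that reaches the heart, DdCBE is a protein that edits cytosine in mitochondrial DNA, and GFP is a fluorescent control protein. The labels do not say what Cl, Ctrl or X stand for, and give no genotype for single lines and no age for the mice. Passages of a line are not separate lines, so p-values in the MEFs measure the spread between passages. The tables hold tRNA rows only, so the cell or tissue could not be checked by marker genes.

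Library totals ran from 1473330 to 4375975 in MEF libraries and from 1540287 to 3037178 in heart libraries. Levels below are CPM, a count relative to its library's total after TMM scaling, edgeR's correction for library composition; isodecoders have nearly the same length. All 3 members passed the filter on low counts in both tables, and in the hearts GTG-1 reached the filter's level in 4 of 4 AAV9-DdCBE and 3 of 4 AAV9-GFP hearts. The row tRNA-His-ATG-1 had 0 counts in all 16 libraries, and rows named tRX-His, which is how the annotation marks tRNA-like genes, had at most 9.

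The 3 members differed in level by orders of magnitude. tRNA-His-GTG-2 was the major member in every library, with 97.2% to 99.9% of the anticodon's counts. tRNA-His-GTG-3 held 0.0452% to 2.11% and tRNA-His-GTG-1 held 0.0202% to 1.02%. The anticodon as a whole took 1.65% to 2.60% of nuclear tRNA counts across MEF libraries and 1.76% to 2.23% across heart libraries.

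In the MEFs the minor member GTG-3 was higher and the major member GTG-2 lower in the Cl lines than in Ctrl_1, and the anticodon total was lower. GTG-3 averaged 263 ± 70.3 CPM in the Cl lines (SD, n = 6) and 48.6 ± 0.375 CPM in Ctrl_1 (SD, n = 2). GTG-2 averaged 17290 ± 1343 CPM in the Cl lines and 26243 ± 619 CPM in Ctrl_1. GTG-1 averaged 8.83 ± 3.11 CPM in the Cl lines and 15.2 ± 0.287 CPM in Ctrl_1. Thus GTG-1, also a minor member, went with the major one.

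The libraries separate cleanly for GTG-3. Its level was 160 and 208 CPM in Cl_1, 262 and 279 CPM in Cl_2, and 310 and 356 CPM in Cl_3, against 48.4 and 48.9 CPM in Ctrl_1. Every Cl passage lay above both Ctrl_1 passages, by a wide margin. The underlying counts were 425 to 1227 in the Cl libraries and 148 and 206 in Ctrl_1. In edgeR's quasi-likelihood test the mean of the Cl lines over Ctrl_1 was 5.24-fold (log2 change 2.39, SE 0.17, adjusted p = 6.26e-05), and GTG-3 had the fourth largest rise of 201 transcripts tested.

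The major member moved the other way in all 6 Cl libraries. GTG-2 stood at 19081 and 18110 CPM in Cl_1, 16921 and 15268 CPM in Cl_2, and 17845 and 16513 CPM in Cl_3, against 26680 and 25806 CPM in Ctrl_1. The groups did not overlap, and the highest Cl passage was well below the lower Ctrl_1 passage. The log2 change was -0.60 (SE 0.06, edgeR adjusted p = 1.95e-04). With the passages of each line summed, 3 lines against 1, the call was lost (-0.58, edgeR adjusted p = 0.0527).

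GTG-1 was scarce in fibroblasts, with 13 to 42 counts in the Cl libraries and 47 and 63 in Ctrl_1. Its level was 5.06 and 5.60 CPM in Cl_1, 10.5 and 11.8 CPM in Cl_2, and 7.86 and 12.2 CPM in Cl_3, against 15.4 and 14.96 CPM in Ctrl_1. Again no Cl passage reached Ctrl_1. The log2 change of the mean was -0.85 (SE 0.19, edgeR adjusted p = 0.00862). This call was lost without Ctrl_1 replicate 1 (adjusted p = 0.0558), without Ctrl_1 replicate 2 (0.0539), with DESeq2 (0.171) and with the passages of each line summed (0.324).

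So in edgeR's main test 1 member rose and 2 fell. Such calls were common among all tRNAs: 22.9% of the 201 transcripts were called higher and 25.4% lower in the mean of the Cl lines. A call by itself therefore says little about tRNA-His.

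**Figure D1:**
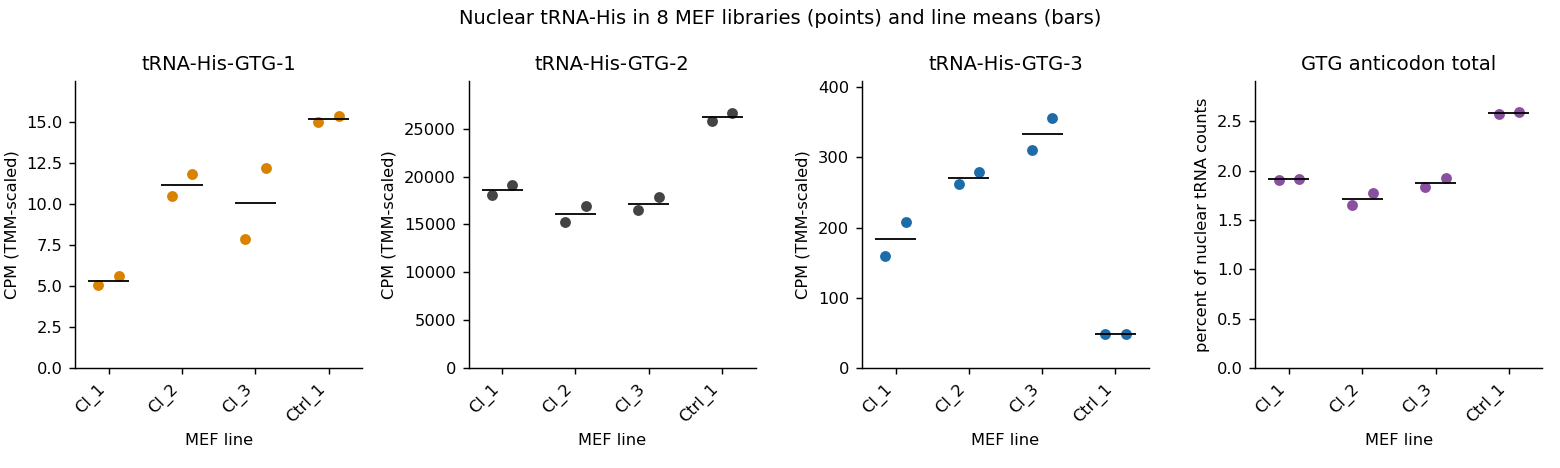
Levels of the 3 members in CPM, and of the whole anticodon as a percent of nuclear tRNA counts, in each MEF library (points; bars are line means). GTG-3 lies at 160 to 356 CPM in the Cl lines and near 48.6 CPM in Ctrl_1, while GTG-2 and the anticodon total are lower in every Cl library than in Ctrl_1.

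Because GTG-2 makes up nearly all of the anticodon, the total followed it. tRNA-His took 1.91% and 1.91% of nuclear tRNA counts in Cl_1, 1.77% and 1.65% in Cl_2, and 1.92% and 1.83% in Cl_3, against 2.60% and 2.58% in Ctrl_1. In counts summed by anticodon, tRNA-His changed by -0.45 (log2; SE 0.06, edgeR adjusted p = 2.89e-04), when 24.3% of 70 anticodons were called lower. The sums were scaled apart from the transcripts; with the scaling of the transcripts the total changed by -0.59. The gain of GTG-3 was too small in counts to offset GTG-2: even in Cl_3, where it was highest, GTG-3 was 1.71% and 2.11% of the anticodon.

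Shares within the anticodon remove any change of the total. GTG-3 made up 0.832% and 1.13% of tRNA-His counts in Cl_1, 1.53% and 1.80% in Cl_2, and 1.71% and 2.11% in Cl_3, against 0.181% and 0.189% in Ctrl_1. The 95% Wilson interval, which covers counting error only, was 0.765% to 0.905% in the lowest Cl library and 0.165% to 0.217% in the higher Ctrl_1 library. The mean share was 8.20 times as high in the Cl lines (1.52% ± 0.465, SD, n = 6) as in Ctrl_1 (0.185% ± 0.00578, SD, n = 2). An exact two-sided permutation test gave p = 0.0357, the smallest that 28 splits allow, and 0.0714 after adjustment over 8 share tests. With the 4 lines as units the smallest possible p was 0.25.

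Pooled over the Cl lines, the share of GTG-1 overlapped that of Ctrl_1. It was 0.0263% and 0.0305% in Cl_1, 0.0608% and 0.0761% in Cl_2, and 0.0433% and 0.0722% in Cl_3, against 0.0574% and 0.0578% in Ctrl_1. Both Cl_1 passages thus lay below Ctrl_1, both Cl_2 passages above it and the Cl_3 passages on either side of it. The mean share was 0.0515% ± 0.0213 of the anticodon in the Cl lines (SD, n = 6) and 0.0576% ± 0.000264 in Ctrl_1 (SD, n = 2), and the exact permutation test gave p = 0.75. The test of members against their own anticodon (edgeR's diffSpliceDGE) gave GTG-3 a log2 change of 2.97 relative to the total (adjusted p = 2.18e-12) and GTG-1 one of -0.27 (adjusted p = 0.653; with limma's diffSplice, which sets a member against the other members, -0.66 and 0.0192). In Cl_1 alone GTG-1 was lower within its anticodon by this test (-1.02, diffSpliceDGE adjusted p = 0.0300), as were 9.47% of transcripts. That call was lost without either Cl_1 passage (adjusted p = 0.299 and 0.0942) and without Ctrl_1 replicate 2 (0.0576). Among 169 transcripts in 42 anticodons 18.3% were called higher in the mean of the Cl lines. GTG-3 had the second largest rise of them.

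The 3 Cl lines did not shift GTG-3 equally. Its log2 change against Ctrl_1 was 1.92 in Cl_1, 2.48 in Cl_2 and 2.77 in Cl_3, each with SE 0.18 to 0.19 and an edgeR adjusted p of at most 5.20e-04. These 3 comparisons share the Ctrl_1 libraries, and 14.9%, 25.9% and 26.4% of the 201 transcripts were called higher in them. A test among the Cl lines alone passed for GTG-3 (edgeR F test, adjusted p = 0.0266), as for 24.4% of transcripts. GTG-3 was higher in Cl_3 than in Cl_1 by 0.86 (SE 0.17, edgeR adjusted p = 0.0104), as were 16.9% of transcripts. That call was lost without Cl_3 replicate 2 (adjusted p = 0.0714). Cl_2 lay between them and missed the threshold against both (edgeR adjusted p = 0.0639 against Cl_1, which passed with DESeq2 at 0.0426, and 0.424 for Cl_3 against Cl_2, where 0.498% of transcripts were called higher).

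GTG-1 had its lowest level in Cl_1, where it fell by 1.51 (SE 0.27, edgeR adjusted p = 0.00437; 0.0552 with DESeq2) relative to Ctrl_1. In Cl_2 its log2 change was -0.46 (edgeR adjusted p = 0.188) and in Cl_3 -0.59 (adjusted p = 0.0726). Between the lines it missed the threshold in the joint F test (edgeR adjusted p = 0.0602), but in pairs it was higher in Cl_2 than in Cl_1 (edgeR adjusted p = 0.0488, with 13.9% of transcripts called higher) and in Cl_3 than in Cl_1 (adjusted p = 0.0482); both calls were lost with DESeq2 (0.265 and 0.330). GTG-2 fell in each line, by 0.50, 0.71 and 0.61 in Cl_1, Cl_2 and Cl_3 (edgeR adjusted p of at most 0.00185), where 18.9%, 20.4% and 24.4% of transcripts were called lower, and missed the threshold for a difference among them (edgeR F test, adjusted p = 0.142). The total fell in each line too, by 0.40, 0.56 and 0.40 (edgeR adjusted p of at most 0.00289), where 12.9%, 18.6% and 12.9% of anticodons were called lower.

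The ratio of both minor members makes the same contrast without the major one. There were 23.6 to 39.5 GTG-3 counts for each GTG-1 count in the Cl libraries, against 3.15 and 3.27 in Ctrl_1. Lines Cl_1 and Cl_3 overlapped in this ratio.

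In the hearts the means of both minor members were higher after AAV9-DdCBE, mainly through the hearts labelled 10X, and the total changed little. With 4 hearts against 4, neither minor member passed edgeR's threshold. In CPM the major member was lower in both 10X hearts than in every AAV9-GFP heart, without passing the threshold. That difference depends on the scaling: with the scaling taken from the anticodon sums its log2 change in the 10X hearts was -0.05. GTG-1 averaged 40.5 ± 35.8 CPM in AAV9-DdCBE hearts and 5.98 ± 2.51 CPM in AAV9-GFP hearts (SD, n = 4 each). GTG-3 averaged 65.3 ± 66.2 CPM in AAV9-DdCBE hearts and 7.24 ± 2.64 CPM in AAV9-GFP hearts. GTG-2 averaged 10107 ± 1524 CPM in AAV9-DdCBE hearts and 11824 ± 643 CPM in AAV9-GFP hearts.

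For both minor members the AAV9-DdCBE hearts spread widely, with 2 hearts standing apart. GTG-3 was 7.998 CPM in the 2X heart, 14.3 CPM in the 5X heart, and 146 and 93.0 CPM in the 10X hearts, against 5.23 to 11.0 CPM in the 4 AAV9-GFP hearts. The 2X heart lay within the range of the AAV9-GFP hearts, the 5X heart just above it and both 10X hearts far above. GTG-1 was 8.42 CPM in the 2X heart, 14.8 CPM in the 5X heart, and 85.0 and 53.8 CPM in the 10X hearts, against 2.27, 6.69, 7.24 and 7.74 CPM in AAV9-GFP hearts. Here all 4 AAV9-DdCBE hearts lay above all 4 AAV9-GFP hearts. The counts behind GTG-1 were small outside the 10X hearts, 20 and 26 in the 2X and 5X hearts and 5 to 18 in AAV9-GFP hearts.

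With 4 hearts against 4, neither minor member passed. GTG-1 changed by 2.76 (log2; SE 0.73, edgeR adjusted p = 0.0775) and GTG-3 one of 3.18 (SE 0.86, edgeR adjusted p = 0.0775). In this comparison 0% of 180 transcripts were called by edgeR, 35 had an unadjusted p under the threshold of 0.05, both minor members among them, and DESeq2 called 29. DESeq2 called GTG-1 at 2.94 (adjusted p = 0.0115) and GTG-3 at 3.36 (adjusted p = 0.00770). edgeR called both members when the 5X heart (adjusted p = 0.0350 and 0.0331) or the 2X heart (0.0146 for each) was left out. Without both 10X hearts the values were 0.95 for GTG-1 and 0.65 for GTG-3 (edgeR adjusted p = 0.949 for each). GTG-2 changed by -0.23 (SE 0.15, edgeR adjusted p = 0.339).

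**Figure D2:**
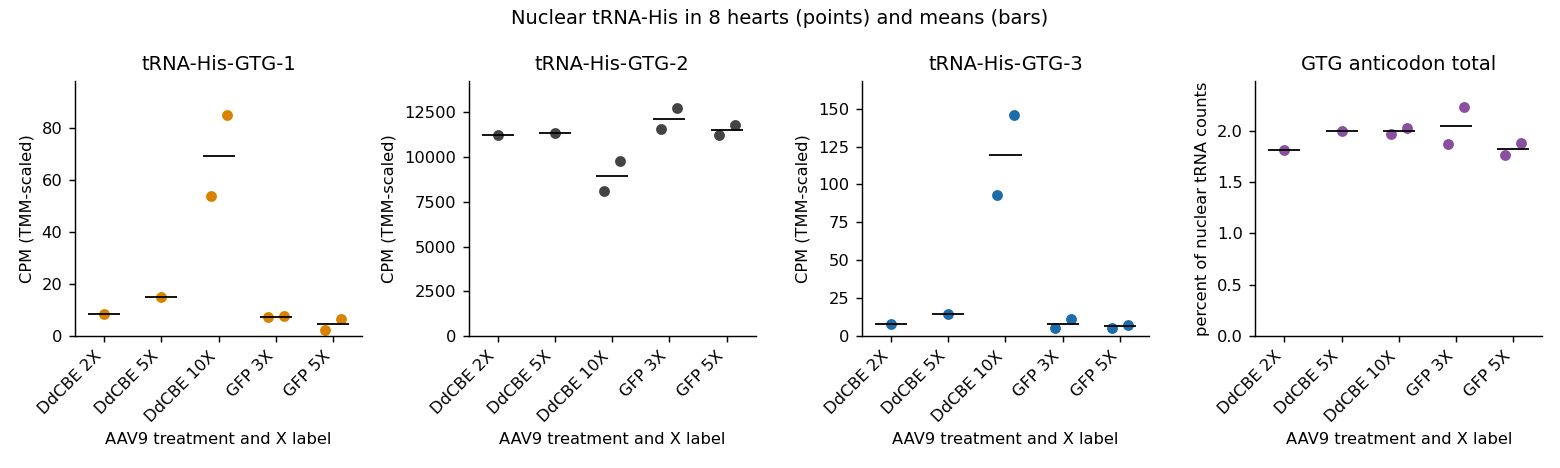
Levels of the 3 members in CPM, and of the anticodon as a percent of nuclear tRNA counts, in each heart by treatment and X label (points; bars are means of hearts with that label). The 10X AAV9-DdCBE hearts hold 53.8 and 85.0 CPM of GTG-1 and 93.0 and 146 CPM of GTG-3, far above the other 6 hearts, whereas the anticodon total overlaps between treatments.

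Split by label, both minor members rose in the 10X hearts. The split was chosen with earlier results of these data known, so its p-values are descriptive. GTG-1 was 69.4 ± 22.1 CPM in them (SD, n = 2) and GTG-3 119 ± 37.4 CPM (SD, n = 2). Relative to the AAV9-GFP hearts GTG-1 rose 11.6-fold (log2 change 3.54, SE 0.39, edgeR adjusted p = 1.19e-04) and GTG-3 16.9-fold (log2 change 4.08, SE 0.33, edgeR adjusted p = 1.92e-05). In that comparison 23.9% of 180 transcripts were called higher and 27.8% lower, and the median transcript changed by -0.23. GTG-3 ranked 8 and GTG-1 ranked 10 among the rises. Relative to the 5X and 2X hearts, GTG-1 rose by 2.63 (SE 0.46, edgeR adjusted p = 0.00331) and GTG-3 by 3.48 (SE 0.41, edgeR adjusted p = 3.49e-04), when 20.6% were called higher. Without mouse 17 the rise of GTG-1 over the 5X and 2X hearts was 2.26 (edgeR adjusted p = 0.0536). The single 5X heart had log2 changes of 1.31 for GTG-1 and 1.02 for GTG-3 against AAV9-GFP (edgeR adjusted p = 0.869 for each), with 0.556% of transcripts called higher, and the single 2X heart 0.50 and 0.19 (edgeR adjusted p = 0.998 for each), with 0% called. No AAV9-GFP heart carries the label 10X, so in these hearts the 10X label and AAV9-DdCBE cannot be told apart.

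The major member in the 10X hearts was 8091 and 9762 CPM, below the 11221 to 12719 CPM of the AAV9-GFP hearts. Its log2 change was -0.41 (SE 0.15, edgeR adjusted p = 0.0547), when the median transcript changed by -0.23. It passed without mouse 18 (-0.54, edgeR adjusted p = 0.0148), without mouse 14 (-0.37, adjusted p = 0.0492) and with the 5X and 2X hearts pooled as 1 level (adjusted p = 0.0313). With the scaling taken from the anticodon sums it was -0.05. Whether GTG-2 was lower at all thus depends on the scaling. The anticodon, nearly all of it GTG-2, took 1.96% and 2.02% of nuclear counts in these hearts, within the AAV9-GFP range of 1.76% to 2.23%. With the scaling of the anticodon sums GTG-1 changed by 3.93 and GTG-3 by 4.47.

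The anticodon total did not separate the treatments. tRNA-His was 1.81% of nuclear tRNA counts in the 2X heart, 1.99% in the 5X heart, and 1.96% and 2.02% in the 10X hearts, against 1.76% to 2.23% in AAV9-GFP hearts. The ranges overlap fully. The mean was 1.95% ± 0.0912 in AAV9-DdCBE hearts and 1.93% ± 0.206 in AAV9-GFP hearts (SD, n = 4 each; exact permutation p = 0.971 over 70 splits). The log2 change of the sum was -0.02 for 4 against 4 hearts (95% interval -0.18 to 0.14, edgeR adjusted p = 0.955) and also -0.02 for the 10X hearts (interval -0.26 to 0.22, adjusted p = 0.924). With the scaling of the transcripts the value for the 10X hearts was -0.38 (adjusted p = 0.0554). edgeR called 0% of 70 anticodons in both comparisons; 3 and 15 had an unadjusted p under 0.05, and DESeq2 called 2 and 13.

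Within the anticodon, GTG-1 made up 0.0748% of counts in the 2X heart, 0.130% in the 5X heart, and 1.02% and 0.543% in the 10X hearts, against 0.0202% to 0.0626% in AAV9-GFP hearts. No AAV9-DdCBE heart overlapped the AAV9-GFP hearts (exact permutation p = 0.0286, the smallest 70 splits allow; 0.0714 adjusted over 8 share tests). The 2X heart's Wilson interval, 0.0485% to 0.116%, did reach into the range of the AAV9-GFP hearts. GTG-3 made up 0.0711%, 0.125%, 1.75% and 0.939% in the same order, against 0.0452% to 0.0860%, and the 2X heart overlapped (exact permutation p = 0.0571; 0.0762 adjusted).

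The test against the anticodon passed for both minor members. In 4 against 4 hearts the log2 change relative to the total was 2.97 for GTG-1 (diffSpliceDGE adjusted p = 0.00598) and 3.40 for GTG-3 (adjusted p = 0.00237), and 14.6% of 151 transcripts were called higher. The call for GTG-1 was lost without the AAV9-GFP heart of mouse 5 (adjusted p = 0.0535) or the 10X heart of mouse 17 (0.0540). For the 10X hearts the values were 3.91 (adjusted p = 8.01e-09) and 4.46 (adjusted p = 8.96e-10), with 33.8% called higher. A rise within the anticodon was thus frequent among the transcripts of these hearts. With limma's diffSplice the values for 4 against 4 hearts were 2.21 (adjusted p = 0.0567) for GTG-1 and 2.23 (0.0559) for GTG-3.

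**Figure D3:**
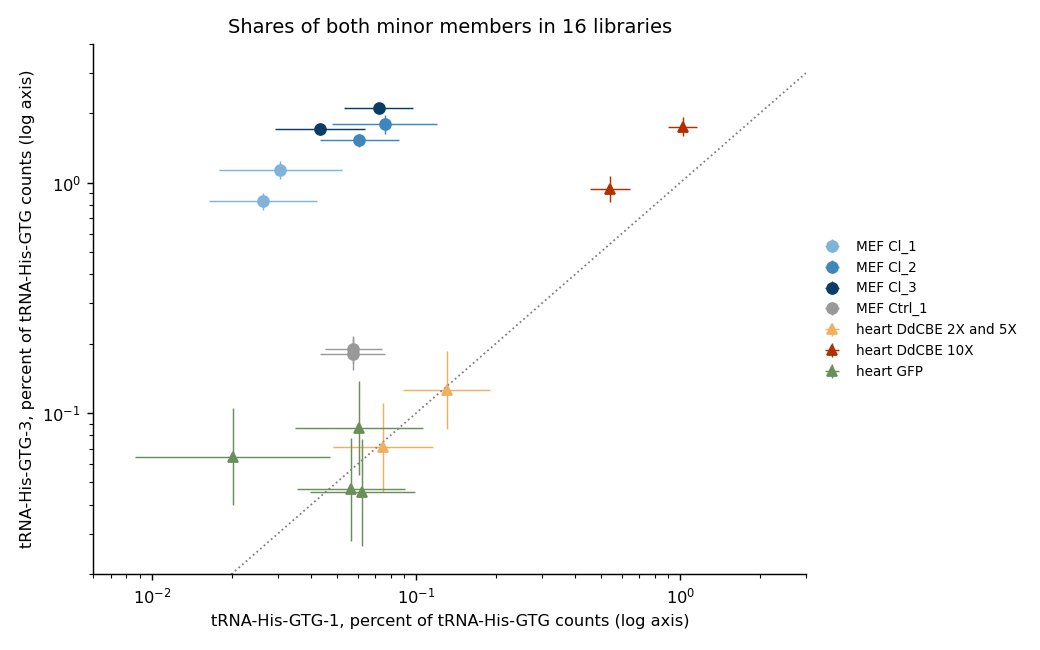
Share of GTG-3 against share of GTG-1 in the tRNA-His-GTG counts of each library, both on log axes; bars are 95% Wilson intervals and the dotted line marks equal shares. The Cl lines lie far above the line (GTG-3 high, with GTG-1 shares on both sides of Ctrl_1), whereas the 10X hearts lie nearer to it, somewhat above (both members high).

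In the MEFs GTG-3 thus rose within the anticodon while GTG-1 missed the threshold there in edgeR's test. In the 10X hearts both rose. Both 10X hearts held 1.72 and 1.73 GTG-3 counts for each GTG-1 count, the 5X heart 0.962 and the 2X heart 0.95, against 0.722 to 3.20 in AAV9-GFP hearts. The 10X hearts lie inside the AAV9-GFP range; those AAV9-GFP values rest on 5 to 18 counts of each member. The MEF and heart tables were scaled separately, so no test was made between them; only the shares can be set side by side. Ctrl_1 fibroblasts and AAV9-GFP hearts had like shares of GTG-1 (0.0576% and 0.050%), and GTG-3 stood at 0.185% and 0.0607%.

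**Figure D4:**
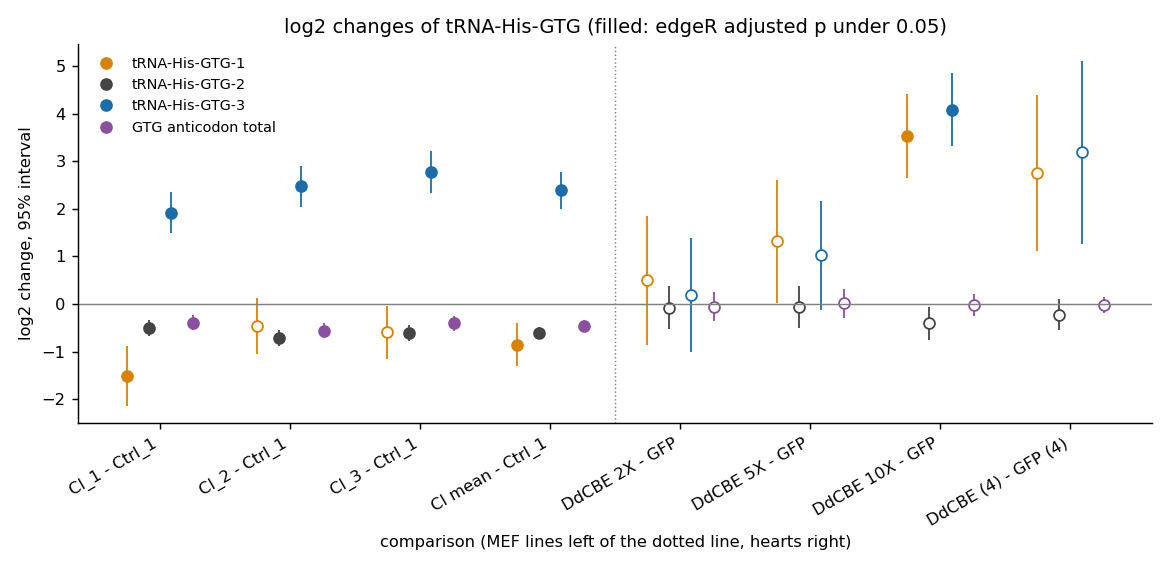
log2 changes of the 3 members and of the anticodon total with 95% intervals in each comparison; filled points passed the edgeR threshold. In the MEFs GTG-3 is between 1.92 and 2.77 with the other values below 0; in the hearts GTG-1 and GTG-3 are both high at 10X (3.54 and 4.08) and the total stays near 0.

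Some measures of the libraries also differed between groups, though not each of them in every line. Minor members of all other nuclear anticodons together took 25.7% and 26.3% of nuclear counts in Cl_1 and 28.02% to 29.0% in Cl_2 and Cl_3, against 25.6% and 26.1% in Ctrl_1. In the hearts they took 30.5% and 28.01% in the 10X hearts and 24.3% and 24.9% in the 2X and 5X hearts, against 23.4% to 25.3% in AAV9-GFP hearts. Mitochondrial tRNA took 59.9% and 44.5% of all counts in the 10X hearts, against 37.4% to 43.3% in AAV9-GFP hearts. In the MEFs it took 2.14% to 3.01% in the Cl lines and 3.41% to 3.74% in Ctrl_1. Their part in the changes of the members was not tested. Less RNA of 1 member per cell and fewer cells of a type that makes it cannot be told apart in such bulk samples.

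The pattern of a lower major and a higher minor member was counted over all nuclear anticodons with at least 2 tested transcripts. In the mean of the Cl lines it was found in 10 of 42 anticodons, tRNA-His among them; 38.1% of major members fell and 31.5% of 127 minor members rose, with 15.7% of minor members falling. In line Cl_1 tRNA-His was the 1 anticodon of 42 with the pattern, against 8 in Cl_2 and 11 in Cl_3. No other anticodon could therefore show it in all 3 lines, as tRNA-His did. Those for tRNA-Ala-CGC, tRNA-Arg-ACG, tRNA-Gly-CCC, tRNA-Leu-AAG, tRNA-Lys-TTT and tRNA-Pro-TGG showed it in 2 lines, Cl_2 and Cl_3. By line, from Cl_1 to Cl_3, 9.52%, 31.0% and 42.9% of major members were called lower. A minor member was called higher in 19, 27 and 26 anticodons. With 4 major members called lower in Cl_1, at most 4 anticodons could show the pattern there. tRNA-His was chosen with earlier results of these data known, so its standing here is a description and not a test. In the 10X hearts 15 of 41 anticodons showed it. tRNA-His was not among these, since GTG-2 missed the threshold. There 63.4% of major members fell and 37.3% of 110 minor members rose. The median major member changed by -0.57 and the median nuclear transcript by -0.31, while edgeR called 0% of 70 anticodon totals. These counts use the scaling of the transcripts and were not repeated with the scaling of the anticodon sums, under which GTG-2 changed by -0.05.

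**Figure D5:**
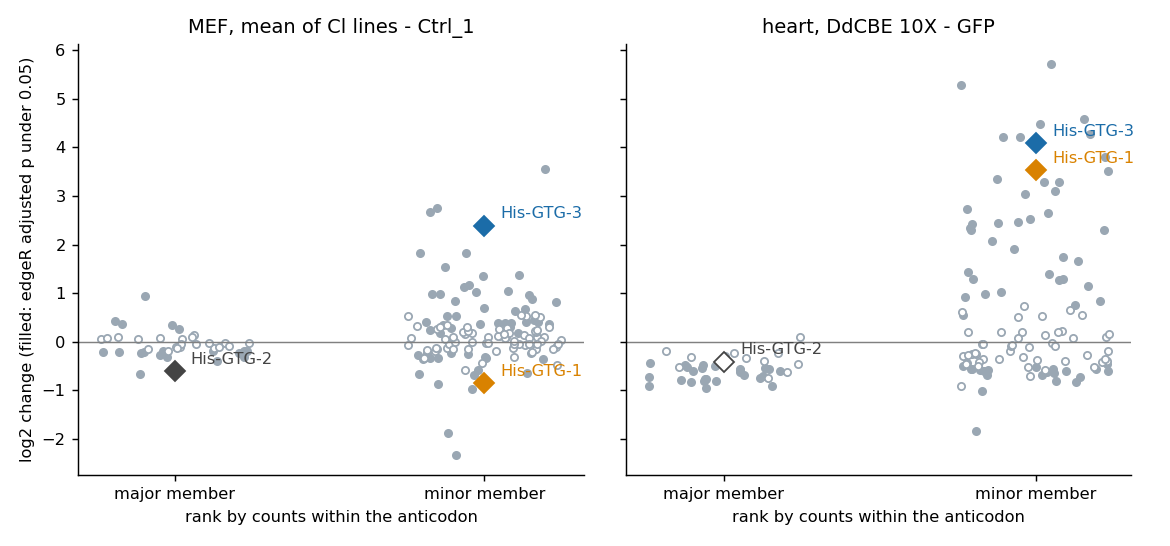
log2 change of every tested nuclear tRNA, split into the major member of its anticodon and the minor members, in the MEFs (left) and the 10X hearts (right); diamonds mark tRNA-His and filled symbols passed the edgeR threshold. GTG-3 (2.39 in MEFs, 4.08 in hearts) lies among the largest rises of minor members in both panels.

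By level over the 8 libraries of a table, other transcripts followed the members closely. Nearest to GTG-3 in the MEFs were tRNA-Asn-GTT-1 (Pearson r = 0.994), tRNA-Pro-TGG-1 (0.992) and tRNA-Gly-CCC-3 (0.991); nearest to GTG-2 were tRNA-Leu-AAG-1 (0.978), tRNA-Ser-GCT-2 (0.960) and tRNA-Glu-TTC-2 (0.947). For GTG-1 they were tRNA-Leu-TAA-1 (0.963), tRNA-Lys-TTT-7 (0.950) and tRNA-Ala-AGC-2 (0.945). In the hearts tRNA-Cys-GCA-5 (0.995), tRNA-Met-CAT-4 (0.991) and tRNA-Ala-AGC-10 (0.990) were nearest to GTG-3, and tRNA-Ser-GCT-1 (0.985), tRNA-Lys-TTT-3 (0.982) and tRNA-Thr-AGT-6 (0.966) to GTG-1. tRNA-Gln-CTG-2 (0.992), tRNA-Gln-TTG-3 (0.990) and tRNA-Thr-CGT-2 (0.984) were nearest to GTG-2. These r describe 8 libraries that fall into groups and share depth and scaling, and they were picked as the highest of 172 (MEF) or 155 (heart) transcripts. None of these names was shared by both minor members of a table.

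The other nuclear tRNAs that receive queuosine were set beside tRNA-His. Of 13 such rows for asparagine, aspartate and tyrosine 9 were tested in each table. In the mean of the Cl lines 2 rose and 0 fell, where 22.9% and 25.4% of all transcripts were called higher and lower: tRNA-Asn-GTT-1 by 3.56 (SE 0.24, edgeR adjusted p = 6.26e-05) and tRNA-Asp-GTC-2 by 0.39 (SE 0.09, adjusted p = 0.00862). Their median log2 change was 0.08, against -0.60 for GTG-2. The anticodon totals changed by 0.20 for asparagine (edgeR adjusted p = 0.0522), 0.25 for aspartate (0.0839) and 0.00 for tyrosine (0.994), against -0.45 for tRNA-His. In the 10X hearts, where 23.9% of all transcripts were called higher and 27.8% lower, 2 of the 9 rose, tRNA-Asn-GTT-1 by 4.28 (SE 0.40, edgeR adjusted p = 4.33e-05) and tRNA-Asn-GTT-2 by 2.31 (SE 0.22, adjusted p = 4.82e-05), and tRNA-Tyr-GTA-2/3 fell by 0.58 (SE 0.17, adjusted p = 0.0220). Whether tRNA-His differs from these tRNAs was not tested.

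The mitochondrial tRNA for histidine, made from mitochondrial DNA and used by the mitochondrial ribosome, was lower in the Cl lines, as were other mitochondrial tRNAs. It averaged 1557 ± 210 CPM in the Cl lines (SD, n = 6) and 2478 ± 225 CPM in Ctrl_1 (SD, n = 2), a difference of -0.68 (log2; SE 0.09, edgeR adjusted p = 0.00105). The mitochondrial tRNAs for aspartate (-0.88, edgeR adjusted p = 0.0145) and tyrosine (-0.39, 0.00453) fell too, while that for asparagine did not (0.40, 0.242). Of all transcripts 25.4% were called lower. Mitochondrial tRNA as a whole took 2.14% to 3.01% of counts in Cl libraries, against 3.41% to 3.74% in Ctrl_1. Whether the tRNA for histidine differs from the other mitochondrial tRNAs was not tested. In the 10X hearts the mitochondrial tRNA for histidine changed by 0.01 (SE 0.21, edgeR adjusted p = 0.954).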

How the data were processed

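The deposited values are the authors' raw read counts per tRNA transcript, whole numbers without normalization, with MEF and heart libraries in separate tables. Per the labels' protocols, RNA extracted under mild acid was oxidised and beta-eliminated, and libraries were made by mim-tRNAseq. The submitters' processing notes name cutadapt 3.5 and mm39; neither the counter nor how reads common to several isodecoders were split is given in the sources used here.

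The main test on counts was edgeR 4.0.16 in R 4.3.3 (TMM, filterByExpr with minimum count 10 and total 15, glmQLFit, glmQLFTest), adjusted by Benjamini-Hochberg over all rows tested, at 0.05. The SE is the log2 change over the square root of F. The 8 MEF libraries entered 1 fit by line; the hearts were fitted by treatment and, apart, by AAV9-GFP and the X label of AAV9-DdCBE. Nuclear and mitochondrial counts were also summed by anticodon (70) and fitted alone. diffSpliceDGE tested members within their anticodon. Shares were compared by exact permutation over libraries. Fits were also run on simulated counts with as many rises as falls, which did not test the choice of scaling. Alternatives included DESeq2 1.42.0 and limma 3.58.1.

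The members, lists and the split by X label were chosen with earlier results of these data known. Named transcripts were every tRNA-His row, the queuosine group, and the 3 nuclear transcripts of other anticodons with the highest Pearson r of log2 CPM (prior count 2). No map from the tRNA-His genes of the RefSeq table to these rows, and no tRNA sequence, was used here.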

Additional observations from a re-analysis of the deposited data

Results flagged for a closer look

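In the AAV9-GFP hearts the share of GTG-1 in the anticodon had 1 low value. Mouse 5 stood at 0.0202% (5 of 24702 counts, Wilson interval 0.00865% to 0.0474%), against 0.0566% to 0.0626% in the other 3 hearts. Its gap took 0.858 of the group's range, and it was the 1 of 14 comparisons so marked (levels and shares in the same AAV9-DdCBE and AAV9-GFP groups of 4 hearts, so not independent), where chance marks about 1 in 20.

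The Cl lines differed from one another in their change against Ctrl_1. GTG-1 was higher in Cl_2 than in Cl_1 by 1.05 (log2; SE 0.29, edgeR adjusted p = 0.0488) and in Cl_3 than in Cl_1 by 0.92 (SE 0.28, edgeR adjusted p = 0.0482). Both calls were lost with DESeq2 (adjusted p = 0.265 and 0.330), and leaving out single libraries gave 0.94 to 1.18 for the difference between Cl_2 and Cl_1 (edgeR adjusted p = 0.0408 to 0.199) and 0.53 to 1.16 for that between Cl_3 and Cl_1 (0.0273 to 0.372). GTG-3 was higher in Cl_3 than in Cl_1 by 0.86 (SE 0.17, edgeR adjusted p = 0.0104), with 0.66 to 1.01 when single libraries were left out (adjusted p = 0.00708 to 0.0714).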

How the results depend on the processing

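In the mean of the Cl lines against Ctrl_1, GTG-3 rose under all 16 alternatives (2.32 to 2.52; edgeR and DESeq2 adjusted p of at most 0.0233) and the total fell under all 16 (-0.59 to -0.44). GTG-2 kept its call under 15 of 16; with the passages of each line summed, 3 lines against 1, it was -0.58 (edgeR adjusted p = 0.0527). GTG-1 lost its call with DESeq2 (-0.86, adjusted p = 0.171), with lines summed (-0.79, 0.324) and without either Ctrl_1 passage, the range over single libraries left out being -0.96 to -0.76. Lines summed, with 4 units in place of 8 libraries, lowered the calls to 9 transcripts (from 97) and 11 anticodons (from 30); without Ctrl_1 replicate 1 they were 59 and 10. limma's diffSplice, which compares a member with the other members, called GTG-1 within its anticodon (-0.66, adjusted p = 0.0192) and 75 transcripts in place of 42. With lines as units the shares differed by -1.33 points for GTG-2, 1.33 for GTG-3 and -0.75 for the total, where no p under 0.25 is possible; single libraries left out gave -1.47 to -1.20, 1.21 to 1.47 and -0.77 to -0.72.

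In 4 against 4 hearts, library totals without TMM called GTG-1 (2.83) and GTG-3 (3.24; adjusted p = 0.0429 for each), as did DESeq2 (2.94 and 3.36). Single hearts left out gave 2.10 to 3.25 for GTG-1 and 2.42 to 3.72 for GTG-3, and within the anticodon 2.23 to 3.40 for GTG-1. limma's diffSplice lost both calls (2.21 and 2.23). The total lay between -0.21 (scaling of the transcripts) and 0.072 with no settled sign: 0.0076 with nuclear counts only, 0.072 in 5X hearts only, -0.086 to 0.043 with single hearts left out, and for the 10X hearts 0.034 with nuclear counts only and -0.14 to 0.044 with single hearts left out. Differences in share with single hearts left out were 0.199 to 0.515 points for GTG-1, -1.39 to -0.52 for GTG-2, 0.32 to 0.88 for GTG-3 and -0.044 to 0.11 for the total; for GTG-1 the exact permutation p was 0.171 without any one AAV9-GFP heart. Calls over all transcripts ran from 0 to 46 for 4 against 4 hearts (14 with library totals, 46 in 5X hearts only, 1 with the X label as covariate, 19 without the 5X heart, 31 without the 2X heart) and from 41 without mouse 17 to 121 without mouse 14 for the 10X hearts (93 with all; 57 with library totals). Over all anticodons they ran from 0 to 23 in 4 against 4 hearts and from 0 to 15 in the 10X hearts. Within anticodons they were 10 without mouse 17 to 32 without mouse 26 in 4 against 4 hearts (22 with all), and 87 with limma in place of 52 in the 10X hearts. The causes were not tested.

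MEF passages share only a replicate number; deviations of same-numbered passages correlated at 0.07 to 0.25 over 6 pairs of lines. With the replicate block, GTG-3 changed by 2.39, GTG-2 by -0.61 and GTG-1 by -0.84 in the mean of the Cl lines, 105 transcripts were called in place of 97, and GTG-1 in Cl_3 against Cl_1 was 0.90 (edgeR adjusted p = 0.0545). The block gained calls in Cl_2 against Cl_1 for GTG-2 (-0.21, edgeR adjusted p = 0.0291) and GTG-3 (0.57, 0.0381). The scaling alternatives and the set without both 10X hearts were chosen after seeing the data. Outside the 10X hearts GTG-1 had 5 to 63 counts a library. These alternatives changed no call of GTG-1 or GTG-3 in the 10X hearts against AAV9-GFP.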
